A study of Mus musculus with 2 samples.

Results

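A set of 9 genes of the semaphorin pathway was followed across the cell classes of the embryonic mouse dorsal telencephalon: the ligands Sema3a, Sema3c, Sema5a and Sema6d, the neuropilin co-receptors Nrp1 and Nrp2, and the plexin receptors Plxna2, Plxna4 and Plxnd1. The members were chosen by gene symbol, with earlier results of these data known. All 9 were found among the 32285 genes of the count tables. Dorsal telencephalons of wild-type control embryos of the EomesDot line had been collected at embryonic day 14.5, dissociated with papain and sequenced as single cells in droplets, from the 3′ ends of transcripts. The data comprised 2 libraries of 1 group (WT), called replicate 2 and replicate 4 by their title numbers, so animals of different genotype or treatment could not be compared and all comparisons are between cell classes. The series title refers to an Eomes-Cre mouse line, C57BL/6J is the strain in the study's methods, and the relation between these names is not given. The labels do not say whether each library came from a single embryo, so p-values measure the spread between these 2 libraries only.

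Semaphorins are secreted or membrane-bound guidance proteins that repel or attract growing axons and migrating neurons. Secreted class 3 semaphorins mostly bind a neuropilin, which has no signalling domain of its own and works in a complex with a class A plexin, whereas transmembrane semaphorins of classes 5 and 6 bind plexins directly. Plexins signal inward through their GTPase-activating domain, collapsin response mediator proteins and MICAL enzymes. In the developing forebrain this system is known for orienting the radial migration of pyramidal neurons, for guiding callosal and corticofugal axons, and for steering interneurons from the medial ganglionic eminence (MGE) around the striatum.

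After filtering, 3122 cells of 4301 barcodes were kept, 1199 in replicate 2 with a median of 30810 UMIs per cell and 1923 in replicate 4 with a median of 22826. Each UMI, a tag added before amplification, stands for 1 captured transcript. The cells formed 24 clusters, of which 20 are named here from marker genes, and 31 semaphorin, neuropilin and plexin genes were kept out of the clustering. Another 3 clusters, with 133 cells in replicate 2 and 157 in replicate 4, stayed unnamed and entered no comparison, among them a cluster of 137 cells with all 14 RGC markers raised but led by Ttr, Trpm3 and Rspo3. The 4 classes compared here were radial glial cell (RGC)-like cells (215 in replicate 2 and 346 in replicate 4), intermediate progenitor cell (IPC)-like cells (189 and 317), excitatory neuron-like cells (516 and 767) and MGE interneuron-like cells (54 and 104). Each class had all of its own markers detected, 14 of 14 in RGC-like cells, 8 of 8 in IPC-like cells, 12 of 12 in excitatory neuron-like cells and 11 of 11 in MGE interneuron-like cells. This is no independent check, since the clusters were named from these lists and 1 UMI in the whole class counts as detected. The RGC, IPC and excitatory marker lists were also detected in full in each other's classes, at other levels. The libraries shared 3 cell barcodes, 1 of them among the kept cells. The MGE interneuron-like class held a sub-cluster of 21 cells, led by Sst, Sgcz and Calb1, that came from replicate 4 alone. Without it the mean levels of the class in CPM were 176 for Sema3a (164 with it), 4.80 for Sema3c (4.02), 3.76 for Sema5a (3.46), 359 for Sema6d (352), 61.9 for Nrp1 (66.4), 71.5 for Nrp2 (122), 563 for Plxna2 (520.0), 213 for Plxna4 (216) and 0.851 for Plxnd1 (0.753).

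The members lie on 6 chromosomes of the mm10 (GRCm38) assembly. RefSeq places Sema3a at chr5:13124822-13603485, Sema3c at chr5:17574816-17730268, Sema5a at chr15:32244813-32696341, Sema6d at chr2:124089943-124667789, Nrp1 at chr8:128358591-128505476, Nrp2 at chr1:62703317-62818692, Plxna2 at chr1:194619791-194816869, Plxna4 at chr6:32144543-32588192 and Plxnd1 at chr6:115954811-115995339. The 250 bases before the start of 8 members were available from RefSeq (GRCm38.p6), in 2 windows for Sema6d, the entry for Plxna4 being missing. These windows belong to single transcript starts, and those of Sema3a, the second of Sema6d, Nrp1 and Plxnd1 lie inside the gene spans given above. They were searched on both strands for CAGATG and CAGCTG, the core letters of E-boxes that proneural bHLH factors of the Neurog and Neurod families are known to bind. The Sema3c window, shown because Sema3c was among the members higher in IPC-like than in RGC-like cells, was the only one of these windows with either word. It held CAGATG 200 bases before the start, in capitals in this stretch of the plus strand at chr5:17574604-17574633.
Sema3c upstream window: cggcggcccgtgCAGATGcggcgggccacg
Of 32851 upstream windows of the same length, 14.4% held CAGATG or its reverse complement CATCTG and 13.0% held CAGCTG, so the match is a description and not a binding site.

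Levels are UMIs per 1000000 UMIs of the summed cells of a class and library (CPM). They were not compared between genes, since capture of 3′ ends and of intronic reads differs with gene length and structure. The secreted ligand Sema3a, known as a repellent for cortical axons and an attractant for apical dendrites, measured 229 CPM in replicate 2 and 199 CPM in replicate 4 in RGC-like cells, 115 and 88.9 in IPC-like cells, 93.1 and 89.0 in excitatory neuron-like cells, and 172 and 155 in MGE interneuron-like cells. Among the 7 classes with 10 or more cells per library, meningeal fibroblast-like cells stood highest at 265 and 267 CPM and Cajal-Retzius-like cells lowest at 24.9 and 28.3. Of the smaller classes, hem or choroid plexus-like cells held 1 Sema3a UMI in all. The ranges of IPC-like and excitatory neuron-like cells overlapped, as did those of excitatory neuron-like cells and GABAergic neurons without a sub-class (101 and 52.4 CPM).

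Sema3c, a second secreted ligand, measured 5.63 and 8.90 CPM in RGC-like cells, 71.3 and 58.0 in IPC-like cells, 105 and 119 in excitatory neuron-like cells, and 2.41 and 5.62 in MGE interneuron-like cells. Among these 4 classes it was found mainly in IPC-like and excitatory neuron-like cells. MGE interneuron-like cells held only 3 and 8 Sema3c UMIs. In meningeal fibroblast-like cells it was at 64.1 CPM in replicate 2 and 1.34 CPM in replicate 4, a level set by a single library.

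Sema5a, a transmembrane semaphorin with thrombospondin repeats, measured 1060.0 and 959 CPM in RGC-like cells, 909 and 597 in IPC-like cells, 79.7 and 87.5 in excitatory neuron-like cells and 4.82 and 2.11 in MGE interneuron-like cells, the last from 6 and 3 UMIs. Sema6d, a transmembrane class 6 semaphorin, measured 23.7 and 28.4 CPM in RGC-like cells, 107 and 63.1 in IPC-like cells, 716 and 552 in excitatory neuron-like cells and 287 and 418 in MGE interneuron-like cells. The 2 transmembrane ligands were therefore distributed in opposite directions along the excitatory lineage, Sema5a over progenitors and Sema6d over neurons.

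Among the co-receptors, Nrp1 measured 10.5 and 9.33 CPM in RGC-like cells, 322 and 392 in IPC-like cells, 569 and 475 in excitatory neuron-like cells, and 38.5 and 94.2 in MGE interneuron-like cells. Nrp2 measured 2.01 and 3.54 CPM in RGC-like cells, 109 and 132 in IPC-like cells, 104 and 102 in excitatory neuron-like cells, and 59.4 and 184 in MGE interneuron-like cells. Both neuropilins were lowest in RGC-like cells among the 7 classes that entered the fit, which had 10 or more cells per library. Among the same 7 classes Nrp2 was highest in Cajal-Retzius-like cells (172 and 118 CPM), but the ranges of this class, MGE interneuron-like and IPC-like cells overlapped, so their order is not resolved. Without the sub-cluster found in replicate 4 alone, Nrp2 in MGE interneuron-like cells of replicate 4 was at 83.6 CPM.

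The class A plexins, the usual signalling partners of neuropilins, differed widely between the neural classes. Plxna2 measured 129 and 126 CPM in RGC-like cells, 1008 and 1067 in IPC-like cells, 1035 and 1112 in excitatory neuron-like cells and 560.4 and 479.5 in MGE interneuron-like cells. Plxna4 measured 10.6 and 5.47 CPM in RGC-like cells, 482 and 794 in IPC-like cells, 1484 and 1583 in excitatory neuron-like cells and 152 and 279.8 in MGE interneuron-like cells. The ranges of Plxna2 overlapped between IPC-like and excitatory neuron-like cells, while those of Plxna4 did not overlap between any pair of the 4 classes. Plxnd1, the plexin that binds Sema3e directly and is best known from endothelium, was at 6.70 and 10.4 CPM in excitatory neuron-like cells and below 1 CPM in the other 3 classes, with 4 and 3 UMIs in RGC-like, 4 and 0 in IPC-like and 1 and 1 in MGE interneuron-like cells.

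**Figure D1:**
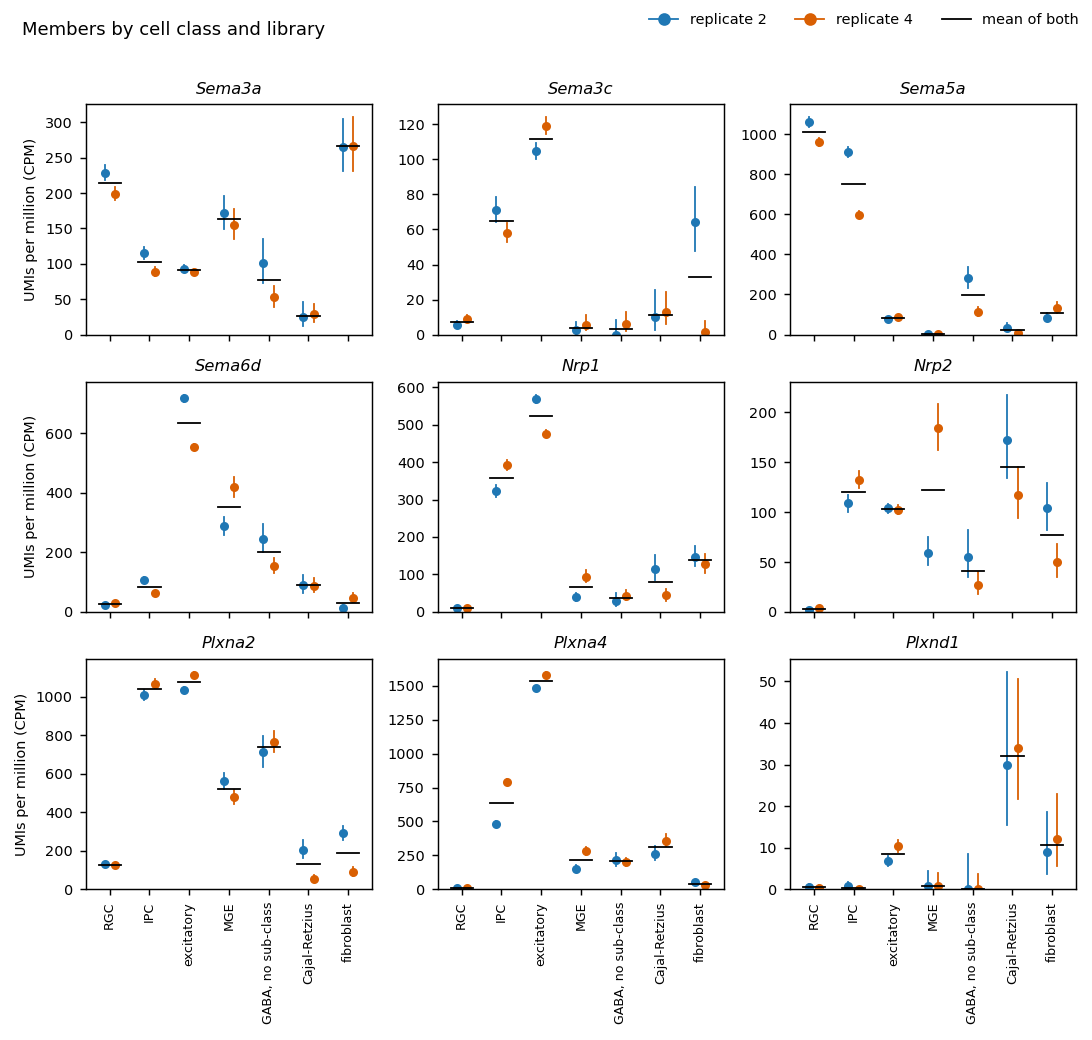
CPM (vertical axis, linear, a scale of its own for each gene) of the 9 members in 7 cell classes (horizontal axis). Points are the 2 libraries with exact 95% Poisson intervals, which cover counting error only, and black lines are means; Sema5a stands high in RGC-like and IPC-like cells (mean 1009 and 753 CPM), and Sema6d, Nrp1 and Plxna4 stand highest in excitatory neuron-like cells (634, 522 and 1533 CPM).

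The first comparison asked which members differ between apical and basal progenitors, RGCs and IPCs. Receptors were higher in IPC-like cells: Plxna4 by 6.36 on the log2 scale (SE 0.47; adjusted p = 3.36e-06, edgeR), Nrp2 by 5.44 (SE 0.56; adjusted p = 3.2e-05, edgeR), Nrp1 by 5.21 (SE 0.43; adjusted p = 6.49e-06, edgeR) and Plxna2 by 3.06 (SE 0.52; adjusted p = 0.000919, edgeR). The ligands Sema3c and Sema6d were higher by 3.17 (SE 0.59; adjusted p = 0.00171, edgeR) and 1.73 (SE 0.38; adjusted p = 0.0045, edgeR). Sema3a was lower in IPC-like cells, with a log2 difference of -1.04 (SE 0.21; adjusted p = 0.0027, edgeR). Sema5a did not pass the test (log2 difference -0.39, SE 0.39; adjusted p = 0.478, edgeR), and Plxnd1, at 4 UMIs in IPC-like and 7 in RGC-like cells, was too sparse for a fold change.

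In total 7 of 9 members were called, 6 higher and 1 lower, where 35.2% of the 12550 genes tested were called in this comparison. The median log2 difference was 3.06 for the members, 0.08 for the 19 other semaphorin and plexin genes tested and -0.06 for all genes tested. With replicate 2 left out the difference of Plxna4 was 7.21, and with replicate 4 left out it was 5.54. The Sema6d call did not hold in 4 of 14 alternatives (adjusted p = 0.28 when cells of 500 genes or more were kept, 0.0781 when mitochondrial UMIs were held to 5%, 0.553 with doublets kept and 0.525 at Leiden resolution 0.5, all edgeR). The 14 RGC markers summed to 8409 CPM in RGC-like cells and to 1498 CPM in IPC-like cells, with none at 0. The 12 excitatory neuron markers, none at 0 either, summed to 2548 CPM in IPC-like cells, beside 2458 CPM for the 8 IPC markers, and to 624 CPM in RGC-like cells. The part of either marker list's cells in these differences was not tested.

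Of the 22 other semaphorin and plexin genes listed, 19 were tested in each comparison. Here 7 were higher and 6 lower in IPC-like cells. The higher ones included Sema6c (mean 8.56 against 1.26 CPM), Sema3e, the ligand of Plxnd1 (39.9 against 7.73 CPM), and Sema4c (17.9 against 4.92 CPM). Plxnc1, the receptor of Sema7a, was lower (7.39 against 43.2 CPM), as were Sema3d and Sema3f. Of 20 genes for signalling or co-receptor proteins, all tested, 10 were higher and 2 lower. L1cam, an adhesion molecule of the Sema3a receptor complex, was higher by 5.33 on the log2 scale (SE 0.43; adjusted p = 6.36e-06, edgeR) and its relative Chl1 by 4.03 (SE 0.67; adjusted p = 0.000823, edgeR). The relative Nrcam went the other way, at 200.3 CPM in IPC-like and 545 CPM in RGC-like cells (adjusted p = 0.000384, edgeR).

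The second comparison asked which members differ between basal progenitors and the excitatory neurons of their lineage. Sema6d was higher in excitatory neuron-like cells by 3.09 on the log2 scale (SE 0.39; adjusted p = 0.000111, edgeR) and Plxna4 by 1.45 (SE 0.37; adjusted p = 0.0103, edgeR), while Sema5a was lower with a difference of -2.98 (SE 0.42; adjusted p = 0.000237, edgeR). Plxnd1 was also called (adjusted p = 0.000239, edgeR). Its summed level was 28.6 times that in IPC-like cells with an exact 95% counting interval from 11.1 to 106, resting on 328 against 4 UMIs, all 4 of them in replicate 2. Plxnd1 is known from endothelium, and the 8 endothelial markers summed to 4.49 CPM in excitatory neuron-like and 5.80 CPM in IPC-like cells, with none of the 8 at 0 in the former and 1 at 0 in the latter. Without replicate 2 the fitted Plxnd1 difference was 9.03, and without replicate 4 it was 3.39, values that depend on how counts of 0 are handled.

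In total 4 of 9 members were called, 3 higher and 1 lower, where 33.8% of the genes tested were called. The median log2 difference was 0.73 for the members and 0.04 for all genes. Nrp1 and Sema3c were higher in excitatory neuron-like cells in both libraries without passing the test (differences of 0.73 and 0.98; adjusted p = 0.13 and 0.166, edgeR), and passed it in 5 and 7 of 14 alternatives. Plxna2, Nrp2 and Sema3a had differences of 0.24, -0.04 and 0.03, none of them called. The Plxna4 call did not hold with cells of at least 500 genes (difference 1.70; adjusted p = 0.0834, edgeR). The direction for Nrp2 changed in 7 of 14 alternatives. At Leiden resolution 0.5 it was higher in excitatory neuron-like cells by 1.60 (adjusted p = 0.000933, edgeR), as it was with doublets kept, by 1.12 (adjusted p = 0.00179, edgeR).

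Among the other family genes, 12 were higher and 2 lower in excitatory neuron-like cells. Sema4f (10.9 against 1.65 CPM), Sema6b (6.91 against 1.27 CPM) and Sema3f (6.74 against 1.25 CPM) led the higher genes, and Sema3e (4.65 against 39.9 CPM) and Sema5b (24.5 against 108 CPM) were lower. Sema3e was thus higher in IPC-like cells than in the classes on either side. The mean level of Sema5b was 318 CPM in RGC-like cells, so it was highest there and lowest in excitatory neuron-like cells among these 3 classes, as was that of its relative Sema5a. Of the signalling and co-receptor genes 10 were higher and 2 lower. Chl1 was higher by 2.92 on the log2 scale (SE 0.61; adjusted p = 0.00313, edgeR) and Crmp1, a collapsin response mediator protein, by 1.84 (SE 0.21; adjusted p = 6.34e-05, edgeR). L1cam was higher by 1.77 (SE 0.28; adjusted p = 0.000527, edgeR), whereas Dpysl4 and Farp1 were lower.

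The third comparison set MGE interneurons, which arrive in the cortex by tangential migration, against the local excitatory neurons. By summed counts MGE interneuron-like cells had more Sema3a, by 0.76 on the log2 scale (SE 0.21; adjusted p = 0.028, edgeR). Within the class only the sub-cluster led by Sst, Nxph1 and Nxph2 (28 and 33 cells) stood above the excitatory neuron-like level, at 317 and 284 CPM. The sub-cluster led by Nxph1, Nxph2 and Maf (26 and 50 cells) stood below it, at 11.8 and 57.1 CPM. So did the 21 cells found in replicate 4 alone, at 64.7 CPM. MGE interneuron-like cells had less Nrp1, with a difference of -3.04 (SE 0.39; adjusted p = 0.000272, edgeR), and less Plxna4, with -2.91 (SE 0.39; adjusted p = 0.000384, edgeR). Sema3c, Sema5a and Plxnd1 were also lower (adjusted p = 0.00188, 0.000312 and 0.0155, edgeR). By summed UMIs, the excitatory neuron-like level was 27.2 times that of MGE interneuron-like cells for Sema3c (counting interval 15.2 to 54.5), 24.8 times for Sema5a (13.1 to 54.3) and 11.5 times for Plxnd1 (3.15 to 95.2), the last from 2 UMIs in MGE interneuron-like cells.

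In total 6 of 9 members were called, 1 higher and 5 lower, where 19.4% of the genes tested were called. The median log2 difference was -2.91 for the members, 0.26 for the 19 other semaphorin and plexin genes tested and -0.07 for all genes. Of all genes called, 37.4% were higher in MGE interneuron-like cells, a share of 48.5% with the DESeq2 Wald test, whose median log2 difference over all genes was 0.13, and 47.8% with at most 5% mitochondrial UMIs. Plxna2, Sema6d and Nrp2 were not called (differences of -1.13, -0.93 and 0.17; adjusted p = 0.136, 0.102 and 0.843, edgeR). Plxna2 passed the test in 4 of 14 alternatives and Sema6d in 3, always lower in MGE interneuron-like cells (lowest adjusted p = 0.000359 and 0.00226, edgeR, both when every gene with a count was tested). For Nrp2 the sign changed in 7 of 14 alternatives, and with count splitting it was called lower (difference -1.01; adjusted p = 0.0187, edgeR). Another of them left out the 21 cells of the sub-cluster from replicate 4, with a difference of -0.61 (adjusted p = 0.309, edgeR). Without those cells the other 8 members kept their sign and their side of the threshold. The Sema5a difference fell to -0.60 (adjusted p = 0.609, edgeR) when cells were held to at most 5% mitochondrial UMIs, a setting in which the mean Sema5a level of the class was 53.8 CPM. The Sema3a call was lost with cells of at least 500 genes and with the family genes kept in clustering (adjusted p = 0.089 and 0.0984, edgeR), and the Plxnd1 call with count splitting (adjusted p = 0.071, edgeR). Without replicate 2 the differences of Nrp1, Sema3c and Sema5a were -2.43, -4.49 and -5.45, and without replicate 4 they were -3.96, -5.51 and -4.12.

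Of the other family genes, 3 were higher in MGE interneuron-like cells and 4 lower. Sema6a, a ligand of class A plexins, was higher by 1.63 on the log2 scale (SE 0.23; adjusted p = 0.000545, edgeR), and so were Sema5b and Sema6c, whereas Sema4d was at 11.1 against 72.5 CPM and Sema7a at 11.5 against 26.3 CPM. The class therefore carried more Sema5b and less Sema5a than excitatory neuron-like cells. Of the signalling and co-receptor genes, 4 were higher and 3 lower. Farp1, a FERM-domain exchange factor that binds class A plexins, was at 319 against 110.1 CPM and Arhgef12, an exchange factor used by plexins of class B, at 366 against 155 CPM, while L1cam was at 42.7 against 94.2 CPM.

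The fourth comparison set MGE interneuron-like cells against RGC-like cells. The study asked about signalling between interneurons expressing Sst and cortical progenitors, both RGCs and IPCs, and MGE interneuron-like cells were not set against IPC-like cells here. Receptors were higher in MGE interneuron-like cells: Nrp2 by 5.57 on the log2 scale (SE 0.57; adjusted p = 1.25e-05, edgeR), Plxna4 by 4.90 (SE 0.45; adjusted p = 5.08e-06, edgeR), Nrp1 by 2.90 (SE 0.42; adjusted p = 0.000139, edgeR) and Plxna2 by 2.17 (SE 0.50; adjusted p = 0.00363, edgeR). The ligand Sema6d was higher by 3.89 (SE 0.41; adjusted p = 1.47e-05, edgeR). Sema5a was lower (adjusted p = 1.58e-06, edgeR), its RGC-like level being 298 times the MGE interneuron-like level by summed UMIs, with a counting interval from 157 to 651. Sema3a was not called (difference -0.25; adjusted p = 0.346, edgeR), nor was Sema3c (adjusted p = 0.607, edgeR), and Plxnd1 was at 2 and 7 UMIs in these classes.

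In total 6 of 9 members were called, 5 higher and 1 lower, in a comparison in which 53.7% of the genes tested were called. The median log2 difference was 2.17 for the members, 1.40 for the 19 other semaphorin and plexin genes tested and -0.04 for all genes. Every one of the 6 calls held in all 14 alternatives, although the Sema5a difference ranged from -8.21 to -4.02. Without replicate 2 the differences of Plxna4, Nrp1 and Sema5a were 5.81, 3.48 and -8.67, and without replicate 4 they were 3.97, 2.01 and -7.64. The comparisons share samples, so the 4 sets of differences are not independent of each other. Of the other family genes 11 were higher in MGE interneuron-like cells, led by Sema6c (45.4 against 1.26 CPM), Sema6b and Sema4g, and 3 were lower, Sema5b (60.04 against 318 CPM), Plxnb2 and Sema4d. Of the signalling and co-receptor genes 14 were higher and 1, Rnd1, was lower, and Chl1 (683 against 7.10 CPM) and L1cam (42.7 against 0.804 CPM) led the higher ones.

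**Figure D2:**
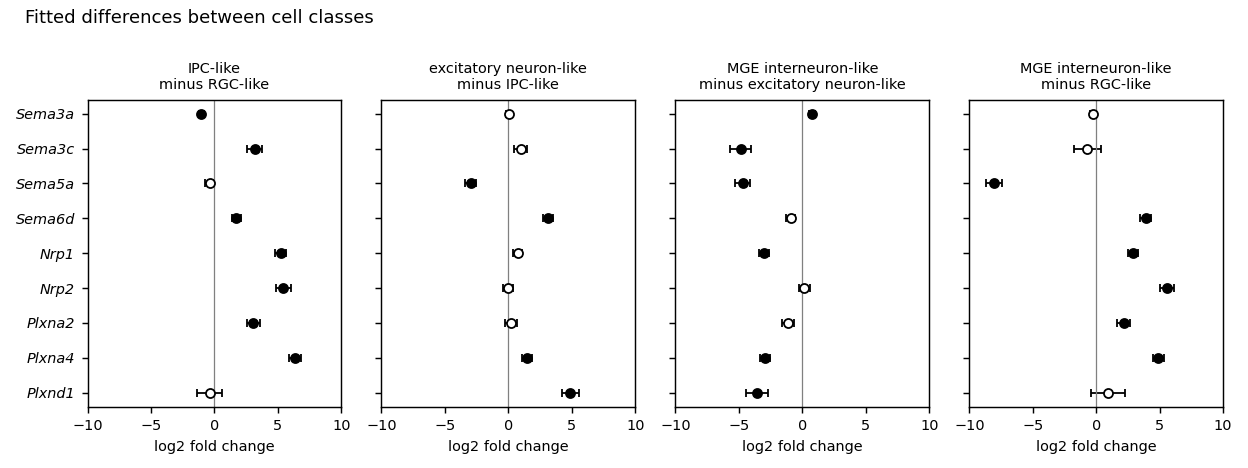
Fitted log2 differences (horizontal axis) with standard errors of the 9 members (rows) in the 4 class comparisons (panels, first class minus second); filled points passed an adjusted p of 0.05 in edgeR's quasi-likelihood test and open points did not. Plxna4 lies to the right by 6.36 and 1.45 in the first pair of panels and to the left, at -2.91, in the third.

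The classes were not uniform, and the members changed in different orders along the clusters of the excitatory lineage. These clusters were formed without the family genes, and their levels are given as a description without a test. In the 3 RGC-like clusters Sema5a was at 1574 and 1498 CPM in the cluster led by Creb5, Gm29260 and Aldoc, 878 and 813 CPM in the cluster led by Creb5, Hist1h1b and Fabp7, and 333 and 271 CPM in the cluster led by Fabp7, Gas1 and Cdc20. Sema3a followed the same order, at 291 and 256, 207 and 177, and 141 and 149.7 CPM. Plxna2 did too, at 207 and 169, 91.1 and 119, and 59.2 and 54.4 CPM. The second of these clusters, in which the proliferation gene Mki67 was at 506 and 425 CPM against 65.3 and 41.6 CPM in the first, thus had less of all 3 genes in both libraries.

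Among the 4 IPC-like clusters, the one led by Eomes, Neurog2 and Kif26b (92 and 106 cells) resembled RGC-like cells in Sema5a, at 1462 and 1196 CPM, but not in Plxna2, at 1047 and 1095 CPM. Its Nrp1 was at 153 and 151 CPM and its Plxna4 at 155 and 262 CPM, and Nrp2 was at 17.4 and 27.97 CPM. Plxna2 was therefore already near its excitatory neuron-like level in the cells with most Neurog2, where Nrp1, Nrp2 and Plxna4 were far below theirs. In the cluster led by Unc5d, Kif26b and Eomes, Nrp1 was at 640.2 and 684 CPM and Plxna4 at 998 and 1206 CPM. Dividing IPC-like cells, led by Ube2c with Mki67 at 602 and 539.9 CPM, were similar, with Nrp1 at 468 and 425 CPM and Plxna4 at 793 and 926 CPM, so the receptors were not confined to cells outside division.

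The last IPC-like cluster, led by Unc5d, Neurod1 and Eomes (30 and 57 cells), stood apart in its ligands. Sema3a was at 3.71 and 6.65 CPM there, against 245 and 202 CPM in the cluster led by Unc5d, Kif26b and Eomes. Sema5a was at 28.8 and 30.2 CPM, against 609.6 and 467 CPM. Nrp2 went the other way, at 352 and 386 CPM against 136 and 101 CPM, the highest Nrp2 level among the 13 clusters of the lineage.

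In the 6 excitatory neuron-like clusters the receptors ranged widely. Nrp1 and Plxna4 were highest in the cluster led by Adamtsl3 and Unc5d, with Nrp1 at 1529 and 1343 CPM and Plxna4 at 2981 and 3622 CPM. Both were low in the cluster led by Rgs6, Lrfn5 and Hs3st4, with Nrp1 at 1.10 and 5.46 CPM and Plxna4 at 313 and 77.9 CPM. Fezf2, a factor of subcortically projecting neurons, was at 63.8 and 52.8 CPM in the first and 276 and 238 CPM in the second. Sema6d followed Nrp1 here, at 1512 and 1352 CPM against 192 and 187 CPM, and Sema3c did as well, at 167 and 188 CPM against 4.77 and 5.46 CPM. Plxnd1 had the reverse pattern, at 2.81 and 4.67 CPM against 12.5 and 23.6 CPM.

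Nrp1 and Plxna4 did not always go together. In the cluster led by Lrfn5, Slit3 and Runx1t1, with Fezf2 at 254 and 260.5 CPM, Nrp1 was at 482 and 272 CPM while Plxna4 was at 190.4 and 197 CPM. In the cluster led by Cntn2, Lrfn5 and Runx1t1, Nrp1 was at 295 and 228 CPM while Plxna4 was at 1495 and 1199 CPM. The order of the 2 clusters was thus opposite for the 2 receptors in both libraries. Of 8 erythroid markers 4 were raised in the cluster led by Cntn2, and the part of erythroid RNA in its levels was not tested. The cluster led by Unc5d, Neurod1 and Slc17a6, in which Eomes was still at 119 and 119.6 CPM, had Nrp1 at 1177 and 1086 CPM and Nrp2 at 254 and 214 CPM. The cluster led by Tafa1, Tafa2 and Arpp21 had the highest Sema3c (230.0 and 295 CPM) and, with 401 and 292 CPM, kept more Sema5a than the other 5.

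**Figure D3:**
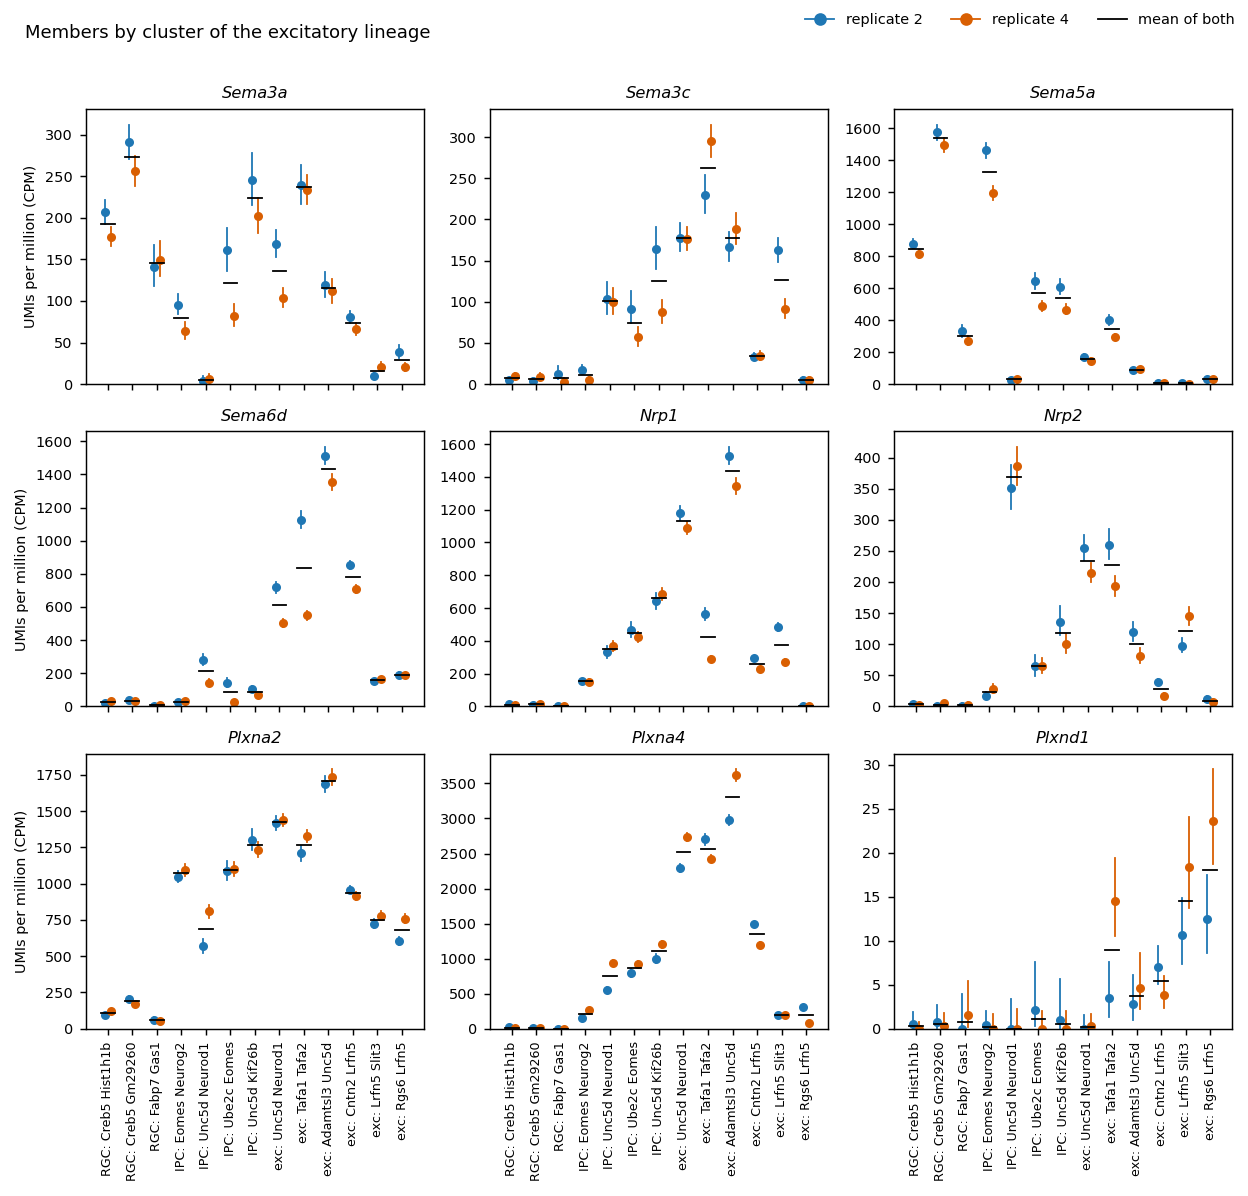
CPM (vertical axis, linear, own scale for each gene) of the members in the 13 clusters of the RGC-like, IPC-like and excitatory (exc) classes, named by 2 leading genes (horizontal axis; RGC-like and IPC-like clusters by mean Neurod6, excitatory ones by falling mean Eomes). Points are the 2 libraries with exact 95% Poisson intervals for counting error and black lines are means; Nrp2 peaks in the IPC-like cluster led by Unc5d, Neurod1 and Eomes (352 and 386 CPM), where Sema3a and Sema5a are low.

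MGE interneuron-like cells were split in their ligands. In the sub-cluster led by Sst, Nxph1 and Nxph2, Sema3a was at 317 and 284 CPM and Sema6d at 506 and 710.4 CPM. In the sub-cluster led by Nxph1, Nxph2 and Maf, Sema3a was at 11.8 and 57.1 CPM and Sema6d at 45.6 and 98.5 CPM. The former held 207 of 214 Sema3a UMIs of the class in replicate 2 and 172 of 221 in replicate 4. Sst was at 1060.0 and 1257 CPM in it and at 54.0 and 68.9 CPM in the latter. The receptors differed less evenly, with Plxna4 at 79.7 and 284 CPM in the former against 231 and 262 CPM in the latter, and Nrp1 at 27.6 and 122 CPM against 50.6 and 41.4 CPM, so that the direction of both turned between the libraries, although the counting intervals overlapped for Plxna4 in replicate 4 and for Nrp1 in replicate 2. Nrp2 was at 30.6 and 76.0 CPM in the former and 91.1 and 92.6 CPM in the latter. The third sub-cluster, found in replicate 4 alone, combined Nrp2 at 547 CPM with Sema3a at 64.7 CPM and Plxna2 at 168 CPM. Its Sst level, 1045 CPM, was near that of the first, so a high Sst level did not always go with a high Sema3a level.

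Splitting the class by a detected Sst UMI gave the same contrast for the ligands. Cells with an Sst UMI (23 in replicate 2, 34 in replicate 4) had Sema3a at 346 and 292 CPM and Sema6d at 456 and 703 CPM, and cells without (31 and 70) had 22.4 and 60.8 CPM and 142 and 219 CPM. Plxna4 was lower in cells with an Sst UMI, at 52.2 and 189 CPM against 237 and 343 CPM, and Nrp1 was at 19.1 and 75.5 CPM against 55.2 and 107 CPM. Within each library the direction was the same for these 4 genes, but the libraries' ranges overlapped for Nrp1, and between the sub-clusters Nrp1 and Plxna4 had the other direction in replicate 4. Cells with an Sst UMI had more UMIs, with medians of 25713 and 15037 against 23396 and 9906, and the part of depth in the split was not tested.

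Striatal projection neuron-like cells, from a region that cortical interneurons are known to bypass, numbered 65 in replicate 4 and 1 in replicate 2, so this comparison has no test and the values are those of a single library. In replicate 4 Nrp2 was at 22.4 CPM in striatal and 184 CPM in MGE interneuron-like cells (83.6 CPM without the sub-cluster of 21 cells), and Sema3a was at 205 and 155 CPM. Sema6d was at 790.2 CPM in striatal projection neuron-like cells, and their sub-cluster led by Ebf1, Isl1 and Rarb had 1154 CPM. Plxna4 differed within the striatal cells, at 55.8 CPM in that sub-cluster and 1401 CPM in the one led by Slit3, Six3os1 and Rasgef1b. CGE interneuron-like cells, few at 5 and 19, had Nrp2 at 375 and 204 CPM and 0 and 6 Sema3a UMIs.

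**Figure D4:**
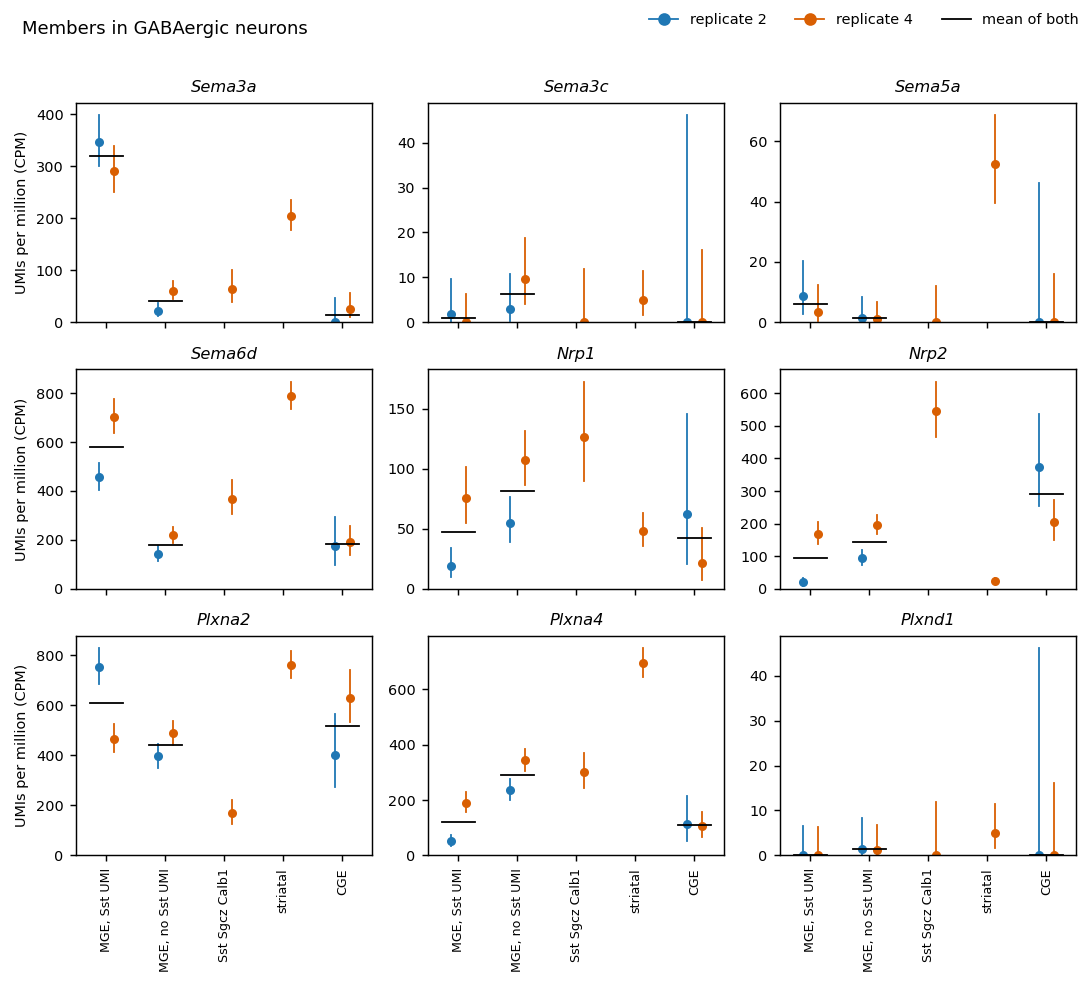
CPM (vertical axis, linear, own scale for each gene) of the members in MGE interneuron-like cells with and without an Sst UMI, the MGE sub-cluster led by Sst, Sgcz and Calb1, striatal projection neuron-like cells and CGE interneuron-like cells (horizontal axis). Points are libraries with exact 95% Poisson intervals for counting error, black lines are means of both, and groups with replicate 4 alone have a single point; Sema3a is at 346 and 292 CPM with an Sst UMI and 22.4 and 60.8 CPM without.

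At the level of single cells, the shares of cells with a UMI were compared after thinning each cell to 5000 UMIs. Nrp1 was detected in 54.8% ± 6.46 (SD, n = 2) of IPC-like, 54.3% ± 3.16 of excitatory neuron-like, 15.2% ± 5.54 of MGE interneuron-like and 3.16% ± 1.05 of RGC-like cells. Unthinned, the shares were 74.2%, 65.9%, 23.6% and 12.6%, at median depths in replicate 2 and replicate 4 of 29641 and 23701 UMIs for IPC-like, 34779 and 25318 for excitatory neuron-like, 23505 and 13396 for MGE interneuron-like and 33238 and 26978 for RGC-like cells. The RGC-like share is the lowest and no class known to lack the gene was available, so how much of it is background is not known. Barcodes led by hemoglobin can carry free RNA besides their own, but the origin of their other UMIs was not tested. They held 22271 and 45601 non-hemoglobin UMIs, too few to detect a level as low as that of Nrp1 in RGC-like cells. They held at most 3 UMIs of any member, and the 3 UMIs each of Plxna2 and Plxna4 in replicate 2 correspond to 135 CPM, against 129 and 10.6 CPM in RGC-like cells of that library. In replicate 4 they held 1 Plxna2 UMI (21.9 CPM) and no Plxna4 UMI. The part of free RNA in the RGC-like levels of these receptors was not tested.

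Plxna4 was detected in 72.8% ± 3.57 of excitatory neuron-like, 59.4% ± 9.81 of IPC-like, 32.6% ± 3.48 of MGE interneuron-like and 2.09% ± 0.888 of RGC-like cells (81.9%, 71.3%, 46.2% and 7.65% unthinned). Plxna2 was nearly ubiquitous in IPC-like (94.4% ± 0.516) and excitatory neuron-like cells (95.1% ± 0.847) and was found in 38.7% ± 3.90 of RGC-like cells (98.0%, 99.2% and 72.8% unthinned). Sema5a was detected in 77.8% ± 2.39 of RGC-like, 68.6% ± 8.83 of IPC-like and 18.3% ± 1.49 of excitatory neuron-like cells, against 2.42% ± 1.92 of MGE interneuron-like cells (88.8%, 79.5%, 28.6% and 4.67% unthinned). Thinned to 3000 UMIs, the Sema5a share of MGE interneuron-like cells was 0.485% and the Nrp1 share of RGC-like cells 1.68%. Sema6d was detected in 9.07% ± 0.414 of RGC-like, 20.1% ± 6.42 of IPC-like, 68.0% ± 2.70 of excitatory neuron-like and 34.9% ± 9.32 of MGE interneuron-like cells (20.3%, 36.8%, 83.7% and 43.9% unthinned). For Sema3a the share was 26.1% ± 2.26 of excitatory neuron-like and 20.8% ± 5.31 of MGE interneuron-like cells (50.5% and 24.0% unthinned). Its mean share was thus lower in MGE interneuron-like cells, where its CPM was higher.

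Nrp1 and Plxna4, which can form a receptor for Sema3a, were detected together in 51.9% and 49.7% of excitatory neuron-like cells of replicate 2 and replicate 4, where the product of their single shares was 39.7% and 39.2%. In IPC-like cells they were together in 31.7% and 46.5%, with products of 26.4% and 39.4%. The pair was thus found in the same cell more often than the product in both classes and libraries. The ratio of share to product was 1.31 and 1.27 in excitatory neuron-like and 1.20 and 1.18 in IPC-like cells. It was 1.44 and 1.33, and 1.34 and 1.23, for Nrp1 with Nrp2. For Nrp2 with Plxna4 it was 1.24 and 1.19, and 1.41 and 1.26, so the excess was not particular to 1 pair. With Plxna2, detected in nearly all of these cells, the ratios of Nrp1 and Nrp2 lay between 0.948 and 1.04. In MGE interneuron-like cells Nrp1 and Plxna4 were together in 3 of 53 and 6 of 94 cells, too few to compare with the product. These shares are descriptions, since cells of a library are not replicates and each class holds several clusters.

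Small populations stood out for single members. The cluster led by Cldn5, Sparc and Hbb-bs (9 and 18 cells) had Plxnd1 at 255 and 286 CPM and Nrp1 at 463 and 877 CPM, and Nrp2 was at 354 and 248 CPM. All 8 endothelial markers were detected in it and summed to 6344 CPM, but 7 of 8 erythroid markers were detected too and summed to 26055 CPM. Since 4 of its 10 leading genes were hemoglobin genes and 2, Cldn5 and Flt1, were endothelial markers, the cluster is called by its leading genes. The part of erythroid RNA in these levels was not tested. The Plxnd1 levels were higher than in any named class, and in Cajal-Retzius-like cells (16 and 24) it was at 29.9 and 34.0 CPM. Hem or choroid plexus-like cells (18 and 9) had the highest Sema6d of any class, at 1275 and 1016 CPM, and had Sema3c at 89.7 and 152 CPM.

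Across the 14 sums of a class and library in the fit, some members varied together. Pearson's r of log2 levels was 0.814 for Sema3c with Nrp1, 0.759 for Nrp1 with Plxna4, 0.749 for Sema6d with Plxna4, 0.742 for Nrp2 with Plxna4 and 0.714 for Nrp1 with Nrp2. The lowest coefficients were -0.584 for Sema3a with Plxna4 and -0.571 for Sema5a with Nrp2. Among 12502 other genes, the pattern nearest to each member was that of Spred1 for Sema3a (r = 0.891), Gramd1b for Sema3c (0.948), Heg1 for Sema5a (0.963), Map3k13 for Sema6d (0.944), Vat1 for Nrp1 (0.944), Mark4 for Nrp2 (0.906), Cplx2 for Plxna2 (0.894), Smim18 for Plxna4 (0.947) and Ccbe1 for Plxnd1 (0.972). The sums come from 7 classes in 2 libraries, so these coefficients describe shared class patterns over few independent points.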

How the data were processed

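UMI counts per gene and barcode were deposited by the authors as raw Cell Ranger matrices, without normalization. The submitters' processing notes name Cell Ranger 7.0.0 and mm10. This version counts intronic reads by default, and whether that setting was changed is not given in the sources used here.

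The members and lists were chosen with earlier results of these data known. Barcodes needed 1000 or more detected genes and 10% or less mitochondrial UMIs, and doublets called by Scrublet were removed (12 in replicate 2, or 0.991% of the barcodes that passed these filters, and 48 in replicate 4, or 2.44%). Depth was 40267872 and 49422007 UMIs. Counts were scaled to 10000 per cell, logged, and clustered with scanpy 1.11.5 (2000 variable genes without the 31 family genes, 30 components, 20 neighbours, Leiden resolution 1). GABAergic clusters were clustered again with 15 neighbours. A cluster was named when at least 3 markers were raised (a log2 ratio of 1 or more over the median cluster, in 25% or more of the cells) and its 10 leading genes did not favour another class, erythroid genes left out. The cluster led by Cldn5, Sparc and Hbb-bs met this rule only for that omission and is left unnamed in the text. A cluster with under 1/3 of its library's median UMIs and no marker of the class among its leading genes also stayed unnamed. By this second rule a cluster of 65 cells with 10 of 14 RGC markers raised and one of 88 cells with 3 of 14 raised were left out. Names given this way can differ from those of the study.

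Counts of each class and library were added up. Classes of 10 or more cells per library, 7 classes and 14 sums, were fitted together in edgeR 4.0.16 (quasi-likelihood test, TMM, filterByExpr), with Benjamini-Hochberg adjustment over 12550 genes and a threshold of 0.05. The 4 compared classes of the same library deviated together (r from 0.112 to 0.345 in 6 pairs; over all 21 class pairs the median was 0.0788 and the lowest -0.0294), and the library as a block was an alternative. Named genes were the 9 members, up to 3 called genes per direction, comparison and list with the largest fold change and 1 sign in both libraries, and the gene nearest to each member. Intervals are exact 95% Poisson or Clopper-Pearson intervals and cover counting error only. The planned comparison with striatal projection neuron-like cells could not be fitted, as replicate 2 held 1 such cell.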

Additional observations from a re-analysis of the deposited data

Results flagged for a closer look

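All 9 members were also counted in barcodes left out by the filters (513 in replicate 2 and 666 in replicate 4), which enter no comparison, and there they lay above the level that 3 UMIs would give. The mean of both libraries was 126 CPM for Sema3a, 29.98 for Sema3c, 307 for Sema5a, 273 for Sema6d, 208 for Nrp1, 92.0 for Nrp2, 571 for Plxna2, 441 for Plxna4 and 24.1 for Plxnd1. Plxnd1 stood above its level in every neural class except Cajal-Retzius-like cells. The barcodes left out include those with few genes, many mitochondrial UMIs or a doublet call, and which cells they came from was not tested.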

How the results depend on the processing

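Of 502 member differences under alternatives that kept both libraries, 448 had the same sign and the same call, 19 gained a call, 9 lost it and 26 changed sign. For Sema3a between excitatory neuron-like and IPC-like cells, 0.03 became -0.0317 with DESeq2 size factors, -0.0318 in DESeq2's Wald test, -0.0484 when every gene with a count was tested, -0.0121 when only these classes were fitted, -0.10 with at most 5% mitochondrial UMIs and -0.0348 with doublets kept. Nrp2 in the same comparison became 0.34 with cells of at least 500 genes, 1.12 with doublets kept, 1.60 and 0.0756 at Leiden resolutions 0.5 and 2, 0.0241 with scaling within libraries, 0.25 with family genes in clustering and 0.48 with count splitting. Nrp2 between MGE interneuron-like and excitatory neuron-like cells became -0.0817 with at least 500 genes, -0.49 with doublets kept, -0.26 at Leiden resolution 0.5, -0.65 with scaling within libraries, -0.89 with family genes in clustering, -1.01 with count splitting (adjusted p = 0.0187, edgeR) and -0.61 without the 21-cell sub-cluster, an alternative added after seeing the data. Sema3a between MGE interneuron-like and RGC-like cells became 0.0701 with doublets kept, 0.0537 with scaling within libraries and 0.059 with count splitting, and Plxnd1 became -1.20 with at most 5% mitochondrial UMIs. Between IPC-like and RGC-like cells, Sema5a became 0.19 with doublets kept and Plxnd1 became 2.28 at Leiden resolution 0.5 (adjusted p = 0.0153, edgeR). The cause of these changes was not tested. Genes called between IPC-like and RGC-like cells fell from 4413 to 2416 at Leiden resolution 0.5. Between excitatory neuron-like and IPC-like cells they rose from 4239 to 6796 when other classes were left out of the fit, and members called rose from 4 to 7 at Leiden resolution 0.5. With each library set as a replicate block, 4648, 4475, 2598 and 6817 genes were called in the 4 comparisons in the order above, and this block changed no call of a member. Of the shares of cells with a UMI, thinned to 3000 UMIs or not thinned, 56 moved by more than the spread between libraries and 16 did not, and of the class levels under other settings 19 moved and 62 did not. Leaving out a library left no residual spread to test, so those values carry no p. Depth limits statements on Plxnd1, Sema3c and Sema5a where a class held under 20 UMIs, and small classes (CGE interneuron-like, hem or choroid plexus-like) rest on few cells.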
